A study of Mus musculus with 27 samples.

Results

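A set of 30 genes of cholesterol synthesis, uptake, and efflux was followed in mouse embryonic fibroblasts (MEFs) that were being converted to induced neurons (iNs). The members were the rows of a gene table of 54532 genes whose symbol was on a list of 30, and each of the 30 symbols matched 1 row. The list held 18 synthesis genes (7 of the mevalonate branch and 11 from squalene to cholesterol), 6 genes of regulation and transport, and 6 genes of efflux. Of these, 29 averaged 0.5 FPKM or more across the 27 libraries and were tested. Nr1h3 was below it with a mean of 0.457 FPKM. FPKM is a fragment number scaled by gene length and library size, so that levels of different genes can be set side by side.

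Cells build cholesterol from acetyl-CoA through mevalonate, isoprenoid phosphates, squalene, and a series of sterols. The pathway is controlled by SREBP transcription factors, which SCAP carries out of the endoplasmic reticulum when membrane sterol is low and which INSIG proteins hold back when sterol is high. Oxysterols and late sterol intermediates act through the liver X receptors (LXRs), which raise exporters such as ABCA1 and ABCG1, their acceptor apolipoprotein E, and MYLIP, a ubiquitin ligase that removes lipoprotein receptors. Fibroblasts take cholesterol from serum lipoprotein, macrophages export much of what they engulf, and neurons need sterol for new membrane.

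The 27 libraries came from days 0, 2, and 4, with 3 replicates per day of WT cells, of Per1-/- cells, and of cells labelled Per2-/-. The MEFs came from day 13.5 embryos without head and heart, pooled from several embryos per dish. The mutant embryos were of the strains B6.129-Per1tm1Drw/J and B6.129-Per2tm1Drw/J, and the sex of the embryos was not determined. Cells of all groups, WT included, received lentiviruses for the reprogramming transcription factors under a doxycycline-driven promoter and for the transactivator M2rtTA 3 days before day 0. They were in medium with serum at that time. The day 0 samples were taken before reprogramming, and on day 0 the medium was changed to serum-free N3 medium with doxycycline and bFGF. The removal of serum, the induction of the factors, and time therefore cannot be told apart in any comparison with day 0. The study describes its replicates as biological triplicates, and p-values measure the spread between these samples.

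The libraries held 15815013 to 24264097 fragments. Per2 was at 1.87 to 2.00 FPKM in the day 0 libraries labelled Per2-/- and at 0.817 to 0.957 FPKM in WT, so the transcript did not check the Per2-/- label, and these libraries are named by their label here. By western blot the study found PER1 protein lost in Per1-/- MEFs and PER2 protein lost in Per2-/- MEFs, so the transcript level alone is no ground to doubt the label. Per1 was at 3.23 to 4.96 FPKM in Per1-/- and 5.44 to 6.33 FPKM in WT on day 0. Fibroblast markers were high on every day (summed level of 12 markers 2819 to 5955 FPKM). The summed level of 20 macrophage markers was 135 to 1124 FPKM on day 0, 181 to 1316 FPKM on day 2, and 466 to 2205 FPKM on day 4. That of 13 neuron markers was 27.6 to 49.7 FPKM on day 0 and 113 to 210.0 FPKM on day 4, and that of 12 proliferation markers 213 to 448 FPKM on day 0 and 115 to 154 FPKM on day 4. Hepatocyte markers, from the tissue best known for cholesterol output, summed to at most 1.23 FPKM, with Alb at most 0.297 FPKM. In such bulk samples fewer cells of a type and less RNA per cell cannot be told apart.

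Of the 30 members, 25 had a promoter in the RefSeq-based table (build GRCm38.p6), and the 250 bases before the start were searched on both strands. TCACNCCAC, the shape of a sterol regulatory element bound by SREBPs, was found in Hmgcs1 and in 1.04% of all 27025 promoters. Its shorter core CACNCCAC was found in 3 members (Acat2, Hmgcs1, and Insig1) and in 5.16% of all promoters, and every match to the longer letters is also a match to the core. The CCAAT box, the site of the factor NF-Y, was found in 13 of the 15 synthesis genes with a promoter, in 1 of 5 efflux genes (Mylip), and in 34.5% of all promoters. The E-box CACGTG, the letters read by CLOCK and BMAL1 and by SREBP-1, was found in 4 members (Hsd17b7, Sc5d, Insig1, and Abca1) and in 6.05% of all. The exact letters of the LXR element, AGGTCA repeated after 4 bases, were in 0 of 25 member promoters and in 3 of all. Sites that depart from these letters were not searched for, so this count does not show that a promoter lacks such an element. A match describes letters in this window and no more.

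The windows of 4 members are shown. The members are the gene with the longer sterol element, a late sterol enzyme, a sterol-responsive regulator, and the exporter called in 1 of 9 genotype comparisons. The windows are written 5′ to 3′ on the strand of the gene and lie upstream of it, outside the exons of the GENCODE vM21 annotation. In Insig1 the last 49 bases before the RefSeq start were left out as exon. Capitals mark TCACNCCAC and CCAAT in Hmgcs1, CCAAT and CACGTG in Sc5d and Insig1, and CACGTG in Abca1, each in either orientation. The TCACNCCAC match of Hmgcs1 begins 137 bases before the start. Its 3 CCAAT boxes begin 237, 176, and 45 bases before it.
Hmgcs1, chr13:119690101-119690350, plus strand: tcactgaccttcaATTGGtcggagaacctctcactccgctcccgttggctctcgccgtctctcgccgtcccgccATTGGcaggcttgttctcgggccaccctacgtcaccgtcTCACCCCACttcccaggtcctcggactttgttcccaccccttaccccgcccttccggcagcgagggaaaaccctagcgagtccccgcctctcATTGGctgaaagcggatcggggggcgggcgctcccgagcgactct
Sc5d, chr9:42264301-42264550, minus strand: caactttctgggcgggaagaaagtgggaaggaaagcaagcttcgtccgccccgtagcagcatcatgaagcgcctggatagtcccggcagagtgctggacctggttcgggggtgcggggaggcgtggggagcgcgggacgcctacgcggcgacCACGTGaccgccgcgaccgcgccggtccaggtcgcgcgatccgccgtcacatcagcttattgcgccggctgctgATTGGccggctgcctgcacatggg
Insig1, chr5:28071162-28071362, plus strand: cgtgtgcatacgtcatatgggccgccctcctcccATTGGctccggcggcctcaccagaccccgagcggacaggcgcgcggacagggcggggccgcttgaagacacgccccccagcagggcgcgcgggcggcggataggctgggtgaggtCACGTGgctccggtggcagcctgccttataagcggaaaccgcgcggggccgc
Abca1, chr4:53159896-53160145, minus strand: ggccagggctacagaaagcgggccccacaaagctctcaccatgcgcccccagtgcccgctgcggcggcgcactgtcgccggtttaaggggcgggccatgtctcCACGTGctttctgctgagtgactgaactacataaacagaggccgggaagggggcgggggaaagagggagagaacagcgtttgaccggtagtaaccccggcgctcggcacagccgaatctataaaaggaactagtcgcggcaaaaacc

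A set of 3 day 0 libraries stood apart for the synthesis genes. All 18 synthesis genes had their highest level of the group in WT replicate 3, in Per1-/- replicate 1, and in replicate 2 of those labelled Per2-/-. Of all 14932 tested genes, 35.3%, 33.4%, and 34% had their highest level of the group in the same 3 libraries. The mean log2(FPKM + 0.1) over the 18 genes was 4.79, 5.10, and 4.94 in them and 3.67 to 4.11 in the other 6 day 0 libraries. Cyp51, the sterol demethylase, was at 61.7, 51.2, and 119.5 FPKM in WT, 142, 63.6, and 49.8 FPKM in Per1-/-, and 41.9, 131, and 60.8 FPKM in those labelled Per2-/-, all at day 0. The same 3 libraries had the lowest summed macrophage marker level of their group (221, 204, and 135 FPKM against 228 to 1124 FPKM in the others), and Apoe was at 42.1, 38.0, and 35.4 FPKM there. Their depth was 20989418 to 23179177 fragments, and the part of any of these in the synthesis levels was not tested. The median replicate SD of the synthesis genes (log2) went from 0.67 at day 0 to 0.29 and 0.19 at the later days, and that of all tested genes was 0.23, 0.17, and 0.17. The day 0 columns of the heat map show the same 3 libraries.

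**Figure D1:**
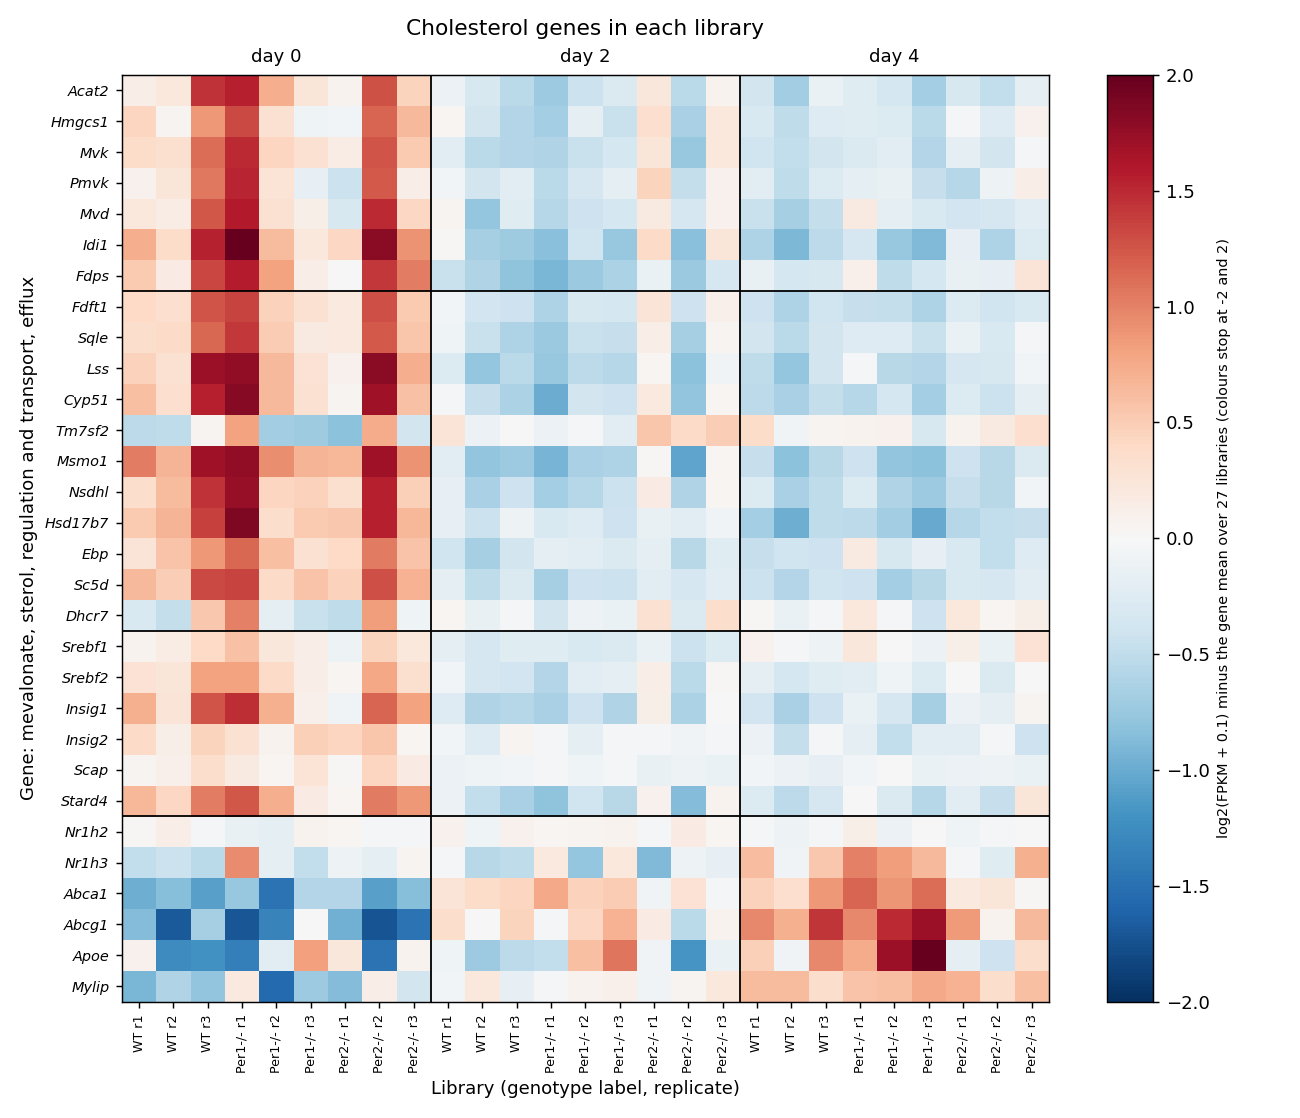
Each cell is the log2(FPKM + 0.1) of 1 gene in 1 library minus the mean of that gene over the 27 libraries, with rows grouped by role and columns by day, genotype label, and replicate (r). Most synthesis rows are red on day 0, deepest in WT replicate 3, Per1-/- replicate 1, and Per2-/- replicate 2, while Abca1, Abcg1, and Mylip are mostly blue on day 0 and red on day 4.

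Cholesterol synthesis genes fell between day 0 and day 2. In WT cells 14 of 18 were called lower on day 2 and 0 higher, with a median log2 difference of -1.04, in Per1-/- cells 16 with a median of -1.24, and in the libraries labelled Per2-/- 12 with a median of -0.87. A gene was called where its limma adjusted p did not exceed 0.05 and its log2 difference reached 0.58 in size. Over all 14932 tested genes, 19.7%, 18.8%, and 16.8% were called lower in the same comparisons, and the median of all was -0.0099, -0.0070, and -0.0067. By day 4 the counts called lower were 15, 14, and 13 of 18, with 20.9%, 20.4%, and 18.8% of all genes. All 3 day 2 libraries lay below all 3 day 0 libraries for 16, 16, and 9 of the 18 genes, and for 34.6%, 31.1%, and 31.5% of all genes. The same 12 genes were called lower in all 3 genotypes on day 2, and 13 on day 4. Without the 3 libraries above, 12, 14, and 6 of 18 were called lower on day 2 (median -0.81, -0.86, and -0.52), and Tm7sf2 was called higher in the libraries labelled Per2-/-. The day 4 counts without them were 12, 12, and 10, with Tm7sf2 called higher in each genotype. With single libraries left out, the day 2 count fell to 9 in WT without day 0 replicate 3, and to 5 in the libraries labelled Per2-/- without day 0 replicate 2 or day 2 replicate 2. Without the same day 0 replicate or day 4 replicate 2, the day 4 count of the latter was 5 or 7. Of the 12 genes, Msmo1, Hsd17b7, Ebp, Sc5d, and Fdps kept their day 2 calls in every genotype whichever library was left out. The other 7 (Mvk, Idi1, Fdft1, Sqle, Lss, Cyp51, and Nsdhl) lost theirs in the libraries labelled Per2-/- without day 0 replicate 2 or without day 2 replicate 2.

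The mevalonate branch makes the building blocks. Hmgcs1, which condenses acetyl-CoA units into HMG-CoA, was at 49.3, 38.1, and 66.9 FPKM in WT on day 0, 37.6, 28.2, and 24.4 on day 2, then 29.6, 25.7, and 30.6 on day 4. The day 2 libraries were all below the lowest day 0 library, but by little, and the log2 difference was -0.76 (SE 0.32, adjusted p = 0.0476), a call lost without either of day 0 replicates 1 and 3 or day 2 replicates 2 and 3. In Per1-/- cells it went from 91.8, 45.2, and 34.3 to 22.7, 31.9, and 26.9 FPKM on day 2, a difference of -0.95 (SE 0.32, adjusted p = 0.0146), not called without replicate 1 of either day. The libraries labelled Per2-/- overlapped between the days (35.1, 81.8, and 57.1, then 46.4, 23.2, and 42.3 FPKM), and the difference of -0.61 (SE 0.32, adjusted p = 0.112) was not called.

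Idi1, the isomerase of the isoprenoid phosphates, had one of the larger differences of the branch. It was at 19.0, 14.7, and 33.5 FPKM in WT on day 0, 11.6, 7.18, and 6.97 on day 2, then 7.45, 6.12, and 7.91 on day 4. The log2 difference to day 2 was -1.33 (SE 0.41, adjusted p = 0.00825) in WT, -1.61 (SE 0.41, adjusted p = 0.00198) in Per1-/-, and -1.11 (SE 0.41, adjusted p = 0.0261) in the libraries labelled Per2-/-. The days did not overlap in any of the 3 genotypes. Mvk, the mevalonate kinase, was also called lower in all 3, with log2 differences of -1.05, -1.21, and -0.74.

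Acat2, Pmvk, and Mvd were each called on day 2 in some genotypes and not in others. Acat2, the cytosolic thiolase at its start, was called lower on day 2 in WT and Per1-/- (log2 differences -0.93 and -1.32), with -0.67 (SE 0.34, adjusted p = 0.0977) in the libraries labelled Per2-/-. The WT call was lost without replicate 3 of either day. Pmvk and Mvd, the next kinase and the decarboxylase, were called lower on day 2 in Per1-/- (-0.90 and -1.11), neither of them without day 0 replicate 1 and Pmvk also not without any single day 2 library or with the replicate number as a block (adjusted p = 0.0585). In WT they had -0.68 (SE 0.38, adjusted p = 0.126) and -0.85 (SE 0.38, adjusted p = 0.0571), although the WT days did not overlap for either. These are calls within each genotype, and no difference between genotypes in these changes passed its own test. Fdps, which makes farnesyl diphosphate, was called lower in all 3 genotypes on day 2, but at a level of only 0.499 to 3.27 FPKM. It has near-identical copies elsewhere in the genome, so its reads may have been split and its level is uncertain. Fdps also overlaps the small nuclear RNA gene Gm22935 on the same strand (mean 2.93 FPKM).

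From squalene onward, 9 of 11 genes were called lower on day 2 in each genotype. Msmo1, the sterol C4-methyl oxidase, was at 35.9, 28.5, and 57.8 FPKM in WT on day 0, 15.3, 10.2, and 10.7 on day 2, then 12.8, 10.03, and 12.1 on day 4. It had the lowest log2 difference of all members in each genotype, -1.71 (SE 0.31, adjusted p = 8.25e-05) in WT, -1.86 (SE 0.31, adjusted p = 3.44e-05) in Per1-/-, and -1.41 (SE 0.31, adjusted p = 0.000658) in the libraries labelled Per2-/-. No day 2 library reached the lowest day 0 library of its genotype. Sqle, the squalene epoxidase and a rate-limiting step, went from 29.4, 30.4, and 51.6 FPKM to 21.9, 17.0, and 15.0 FPKM in WT, -1.01 (SE 0.28, adjusted p = 0.00412).

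Lss and Cyp51 act next in the pathway. Lss, the cyclase that closes the sterol rings, was at 8.55, 7.68, and 20.5 FPKM in WT on day 0 and 5.11, 3.56, and 4.22 on day 2, a log2 difference of -1.36 (SE 0.40, adjusted p = 0.00571). Cyp51 was at 39.8, 29.3, and 25.9 FPKM on day 2 and 28.1, 25.8, and 29.1 on day 4, -1.21 (SE 0.38, adjusted p = 0.0101) for day 2. The WT day 2 calls of Lss, Cyp51, and Idi1 were lost without day 0 replicate 3. In the libraries labelled Per2-/- the Cyp51 values of day 2 were 46.2, 23.5, and 41.6 FPKM, and the highest of them was above the lowest of day 0. Cyp51 overlaps Akap9 on the other strand (mean 6.37 FPKM), and the library preparation did not keep strand.

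Ebp and Sc5d had the smallest day 0 replicate SDs of the 18 synthesis genes (0.36 and 0.46 on the log2 scale). Sc5d, the lathosterol oxidase, was at 24.1, 21.7, and 38.4 FPKM in WT on day 0, 13.4, 10.7, and 12.6 on day 2, then 11.3, 10.1, and 11.6 on day 4. Its log2 difference to day 2 was -1.15 (SE 0.22, adjusted p = 0.000122) in WT, -1.27 (SE 0.22, adjusted p = 4.35e-05) in Per1-/-, and -1.07 (SE 0.22, adjusted p = 0.000284) in the libraries labelled Per2-/-, with no overlap of the days. Ebp, the sterol isomerase, had -1.04, -0.93, and -1.002 in the same order, again with no overlap.

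Hsd17b7, a sterol ketoreductase, had its lowest levels on day 4. It was at 18.2, 20.2, and 32.7 FPKM in WT on day 0, 11.2, 9.38, and 11.8 on day 2, then 7.89, 6.37, and 8.87 on day 4. The days 2 and 4 did not overlap in any genotype, as for 17.5%, 15.7%, and 15.6% of all genes in the same direction in WT, Per1-/-, and the libraries labelled Per2-/-. Its day 4 minus day 2 differences of -0.49 (SE 0.30, adjusted p = 0.385), -0.42 (SE 0.30, adjusted p = 0.464), and -0.36 (SE 0.30, adjusted p = 0.512) were not called.

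Fdft1 and Nsdhl were the remaining genes called lower in all 3 genotypes on day 2. Fdft1, the squalene synthase, had -0.95, -1.13, and -0.69. It overlaps the abundant Ctsb (mean 197 FPKM) on the other strand, so that its level is uncertain. Nsdhl, a sterol dehydrogenase, had -1.21, -1.44, and -0.92.

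Tm7sf2 and Dhcr7, both sterol reductases, were not called on either day in any genotype. Tm7sf2 was at 2.03, 2.05, and 3.08 FPKM in WT on day 0, 3.55, 2.72, and 2.96 on day 2, then 3.82, 2.81, and 3.08 on day 4. Its log2 difference to day 2 was 0.37 (SE 0.33, adjusted p = 0.347) in WT, with a 95% interval of -0.32 to 1.06. In the other 6 day 0 libraries of the 9 it was at 1.63 to 2.26 FPKM, against 3.08, 5.22, and 4.99 FPKM in the 3 that stood apart. Dhcr7, which makes cholesterol from its last precursor, was at 5.04, 4.46, and 9.14 FPKM in WT on day 0 and 6.46, 5.64, and 6.06 on day 2. Its difference was 0.033 (SE 0.33, adjusted p = 0.938) with an interval of -0.65 to 0.71, a range that still holds a fall as large as the threshold. With FPKM rescaled to a common sum, Tm7sf2 was called higher on day 2 in WT and in the libraries labelled Per2-/- (log2 differences 0.79 and 0.94). It overlaps Vps51 on the same strand (mean 0.588 FPKM).

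**Figure D2:**
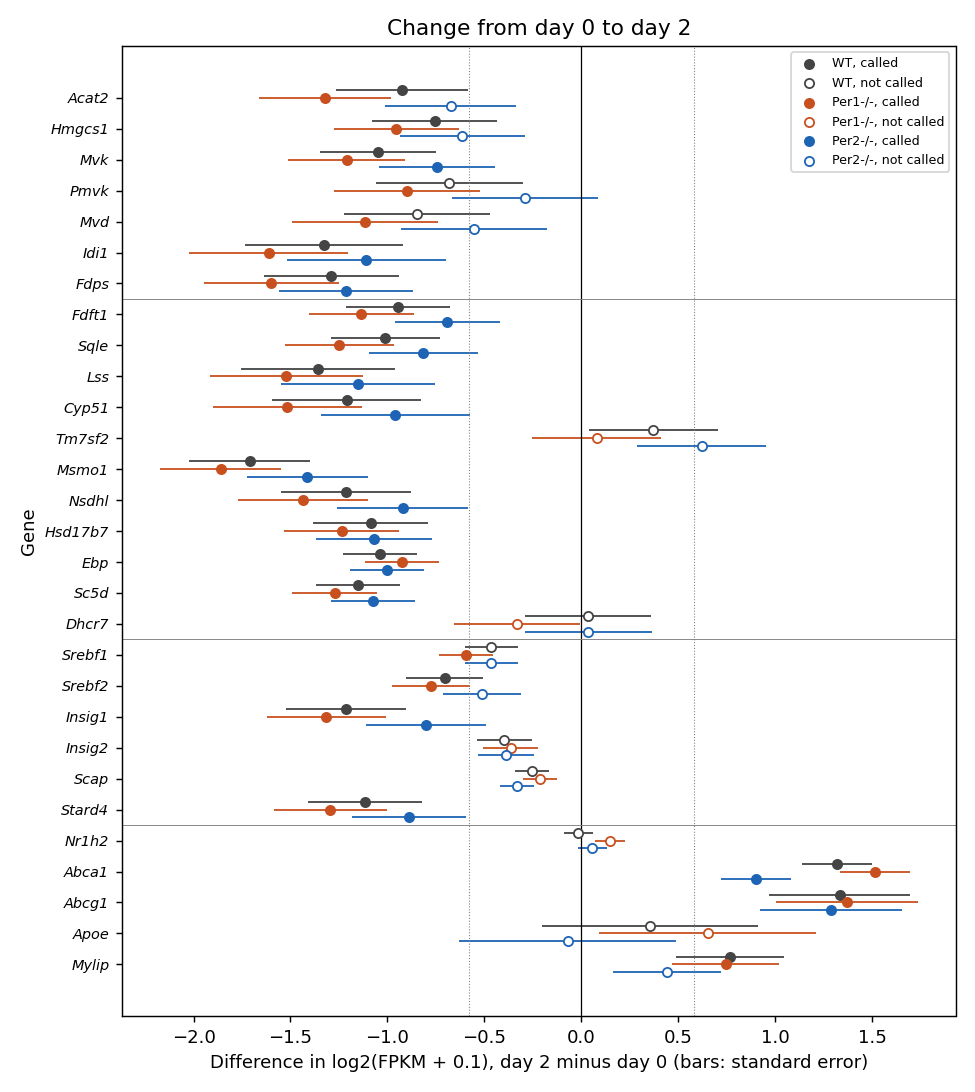
Points give the log2(FPKM + 0.1) difference of day 2 minus day 0 for each tested gene and genotype label, bars are standard errors from limma (3 libraries per group), filled points were called, and dotted lines mark 0.58 in either direction. Synthesis genes lie to the left of 0 except Tm7sf2 and Dhcr7, and Abca1 and Abcg1 are called to the right in each genotype.

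The number of calls moved with the scaling of the libraries. The deposited FPKM had been scaled so that the typical gene kept its level, and the table summed to 333295 to 374624 FPKM per library on day 0 but 261289 to 289211 on day 2. With every library rescaled to a common sum, the median of all genes moved up by 0.24 to 0.42 in the 6 comparisons with day 0. Synthesis genes called lower were then 5, 12, and 5 of 18 on day 2 and 10, 12, and 7 on day 4 in WT, Per1-/-, and the libraries labelled Per2-/-. Relative to the median of all genes, the synthesis median on day 2 was -1.03, -1.24, and -0.86 as deposited and -1.02, -1.22, and -0.85 after the rescaling. The rescaling gives all genes of a library the same factor, so this relative measure could hardly change and is no check of the calls.

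Of the genes of regulation and transport, Insig1 and Stard4 were called lower on day 2 in all 3 genotypes. In all, 3 of 6 were called lower in WT, 4 in Per1-/-, and 2 in the libraries labelled Per2-/-, beside 19.7%, 18.8%, and 16.8% of all genes, 0 were called higher, and 2 of 6 were called in no genotype. Insig1, the sterol-responsive retention protein of SCAP, was at 46.5, 33.8, and 67.8 FPKM in WT on day 0, 23.7, 18.8, and 19.0 on day 2, then 21.7, 18.1, and 21.4 on day 4. The days did not overlap in WT, and the log2 difference to day 2 was -1.21 (SE 0.31, adjusted p = 0.00195). It was -1.31 in Per1-/- and -0.80 in the libraries labelled Per2-/-, both called, the latter not without any 1 of day 0 replicates 2 and 3 and day 2 replicate 2. Stard4, which carries cholesterol between membranes, was called lower in all 3 genotypes on both days, with log2 differences of -1.11, -1.29, and -0.89 on day 2, where the last call was lost without any of the same 3 libraries.

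Both SREBP genes were lower on day 2 in WT by small differences. Srebf2, the factor of cholesterol synthesis, was at 46.7, 45.6, and 67.2 FPKM in WT on day 0 and 36.9, 30.4, and 29.3 on day 2, -0.71 (SE 0.20, adjusted p = 0.00458), not called without day 0 replicate 3. Srebf1, whose product acts more on fatty acid genes, went from 22.6, 23.8, and 28.4 to 18.8, 17.0, and 18.1 FPKM and was at 22.9, 21.0, and 20.1 FPKM on day 4. Its day 2 difference in WT, -0.46 (SE 0.14, adjusted p = 0.00641), was below the size threshold, and only in Per1-/- did it pass it (-0.59), a call lost without day 0 replicate 1 or day 2 replicate 2. Srebf1 overlaps Rai1 on the other strand (mean 10.8 FPKM).

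Insig2, the INSIG that sterols control less directly, and Scap, the escort of the SREBPs, were the 2 not called on day 2. Insig2 had log2 differences of -0.40, -0.37, and -0.39 to day 2, and Scap had -0.25, -0.21, and -0.33. All had an adjusted p under 0.05 in limma, none reached the size threshold on day 2, Insig2 passed it on day 4 in Per1-/- (-0.58), and both genes changed sign in WT and Per1-/- when FPKM were rescaled to a common sum.

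The exporter genes rose as the synthesis genes fell. Of 5 tested efflux genes, 3 were called higher on day 2 in WT, 3 in Per1-/-, and 2 in the libraries labelled Per2-/-, where 20.8%, 20.8%, and 18.7% of all genes were called higher. On day 4 the counts were 3, 4, and 3, with 22.9%, 22.6%, and 21.6% of all genes, and 0 efflux genes were called lower. Without the 3 day 0 libraries that stood apart, 3 were called higher in each genotype on day 2, and 3, 4, and 3 on day 4.

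Abca1, which loads cholesterol on lipid-poor apolipoprotein, was at 5.46, 5.93, and 5.06 FPKM in WT on day 0, 12.9, 13.9, and 14.6 on day 2, then 14.9, 13.7, and 19.8 on day 4. In Per1-/- cells it was at 6.37, 3.82, and 7.16, then 18.4, 14.8, and 15.5, then 24.3, 19.9, and 23.5 FPKM. In the libraries labelled Per2-/- it was at 7.12, 5.06, and 5.92, then 10.3, 13.1, and 10.5, then 12.4, 12.7, and 10.9 FPKM. Day 0 lay below days 2 and 4 with no overlap in each genotype. The log2 difference of day 2 minus day 0 was 1.32 (SE 0.18, adjusted p = 2.49e-06) in WT, 1.51 (SE 0.18, adjusted p = 4.58e-07) in Per1-/-, and 0.90 (SE 0.18, adjusted p = 0.00024) in the libraries labelled Per2-/-, and that of day 4 was 1.53, 1.99, and 0.99.

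Abcg1, which hands cholesterol to larger lipoprotein particles, was at 1.91, 1.05, and 2.21 FPKM in WT on day 0, 4.55, 3.59, and 4.86 on day 2, then 6.99, 5.87, and 9.71 on day 4. It had the largest day 4 difference of the members in each genotype, 2.10 (SE 0.36, adjusted p = 4.23e-05) in WT, 2.41 (SE 0.36, adjusted p = 8.41e-06) in Per1-/-, and 1.91 (SE 0.36, adjusted p = 0.00013) in the libraries labelled Per2-/-. In Per1-/- one day 0 library, at 3.56 FPKM, was above the lowest of day 2, and this library had the highest macrophage marker sum of day 0.

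Mylip, the ligase, was at 4.83, 6.04, and 5.30 FPKM in WT on day 0, 8.88, 10.7, and 8.18 on day 2, then 14.4, 14.3, and 11.8 on day 4. It was called higher on day 2 in WT, 0.77 (SE 0.28, adjusted p = 0.0213), and in Per1-/-, 0.74 (SE 0.28, adjusted p = 0.025), and had 0.44 (SE 0.28, adjusted p = 0.183) in the libraries labelled Per2-/-. The day 2 calls were lost in WT without day 0 replicate 1 or day 2 replicate 2 and in Per1-/- without any of 4 libraries (replicates 2 and 3 of both days). On day 4 it was called higher in all 3, by 1.31, 1.34, and 0.92. Among the day 0 libraries Mylip was highest in Per1-/- replicate 1 and replicate 2 labelled Per2-/-, at 10.6 and 10.1 FPKM.

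Apoe was the most abundant member and varied widely between replicates. It was at 104, 40.9, and 42.1 FPKM in WT on day 0, 92.3, 59.1, and 68.4 on day 2, then 137, 93.8, and 192 on day 4. In Per1-/- cells it was at 38.0, 83.5, and 174, then 69.4, 149, and 207, then 164, 323, and 481 FPKM. In the libraries labelled Per2-/- it was at 115, 35.4, and 103, then 93.2, 43.4, and 89.6, then 86.3, 73.3, and 125 FPKM. With the replicate number as a block, the day 2 difference in Per1-/- (0.65) was called higher in limma (adjusted p = 0.0443), which it was not without the block. The days overlapped in each genotype. Without the block, the change to day 4 was called in Per1-/- only, 1.84 (SE 0.56, adjusted p = 0.00697), against 1.26 (SE 0.56, adjusted p = 0.0549) in WT and 0.30 (SE 0.56, adjusted p = 0.656) in the libraries labelled Per2-/-. With the block, the WT change to day 4 was also called in limma (1.26, adjusted p = 0.000695). Same-numbered WT libraries of days 0 and 4 did not deviate together, however (correlations of -0.017 to 0.061), so the block has little ground in this comparison. The test of the difference between these changes is given with the genotype comparisons.

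Macrophage marker genes were called higher on both later days, though few were on day 2 in the libraries labelled Per2-/-. From day 0 to day 2, 8, 14, and 2 of 19 tested macrophage markers were called higher in WT, Per1-/-, and the libraries labelled Per2-/-, and 0 lower, beside 20.8%, 20.8%, and 18.7% of all genes. From day 0 to day 4 it was 15, 18, and 11, and 0 lower, beside 22.9%, 22.6%, and 21.6%. The mean summed level of the markers went from 315 to 429 and 856 FPKM over days 0, 2, and 4 in WT and from 561 to 914 and 1882 FPKM in Per1-/-. In the libraries labelled Per2-/- it was 415, 307, and 614 FPKM, lower on day 2 than on day 0, while Abca1 and Abcg1 were called higher there on day 2. Csf1r, the M-CSF receptor, was at 8.82, 4.84, and 5.96 FPKM in WT on day 0 and 33.6, 26.6, and 37.9 FPKM on day 4, and none of the 20 markers was at 0 in all libraries of a day. Their part in the rise of the efflux genes was not tested.

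Both LXR genes were on the list. Nr1h2, encoding LXR beta, was at 16.7 to 21.5 FPKM in all 27 libraries, with log2 differences to day 2 of -0.016, 0.15, and 0.057. Its 95% interval in WT was -0.17 to 0.14, inside the size threshold, though with FPKM rescaled to a common sum the WT difference was 0.42. Nr1h3, encoding LXR alpha, was at 0.272, 0.288, and 0.258 FPKM in WT on day 0 and 0.702, 0.393, and 0.656 FPKM on day 4. In Per1-/- it was at 0.947, 0.828, and 0.716 FPKM on day 4, and at this level it was not tested.

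**Figure D3:**
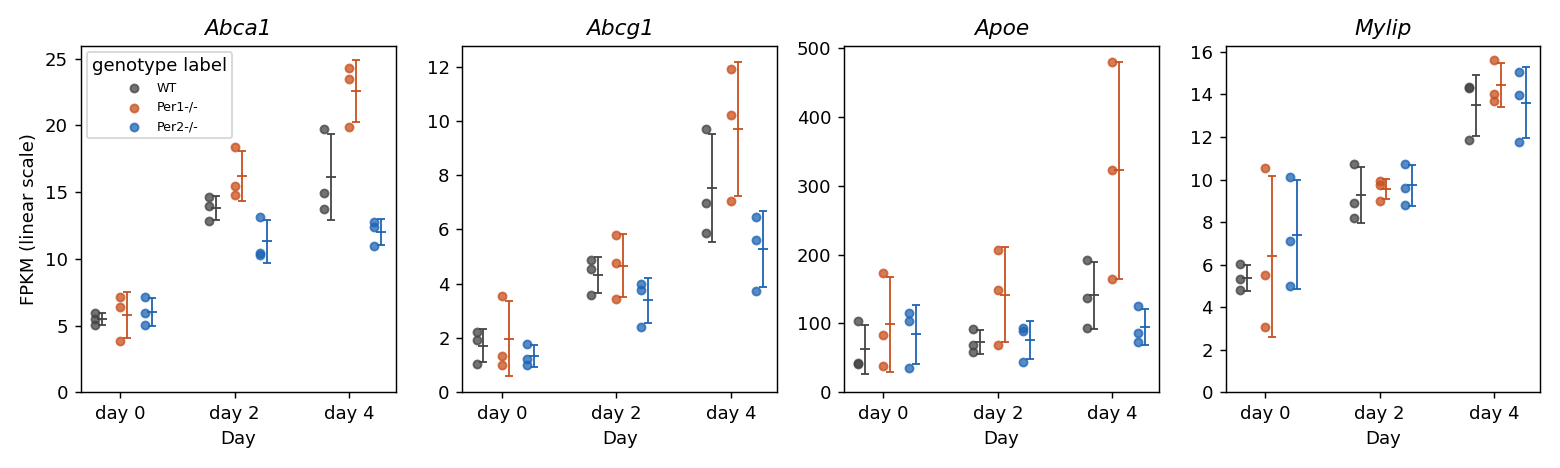
Points are the FPKM of Abca1, Abcg1, Apoe, and Mylip in single libraries by day and genotype label (linear axes from 0), with the mean and SD of 3 libraries beside them. Abca1 rises from 3.82 to 7.16 FPKM on day 0 to 10.9 to 24.3 FPKM on day 4, with the 3 Per1-/- libraries highest on day 4.

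Between days 2 and 4 no member was called in any genotype without a replicate block. In these comparisons 3.21%, 2.44%, and 4.06% of all genes were called, and at an unadjusted p under 0.05 there were 1, 5, and 1 of 29 members and 19.9%, 20%, and 22.6% of all genes. The median of the 18 synthesis genes was -0.060, 0.079, and -0.11 on the log2 scale. In WT and Per1-/- all 3 same-numbered pairs of libraries of these days deviated together, and with the replicate number as a block Abcg1 and Apoe were called higher in both. Their adjusted p with the block was 0.0177 and 0.0453 in WT and 0.00329 and 0.0128 in Per1-/-, and 5.55% and 4.89% of all genes were called in the same fits. With voom weights on the fragments 0, 1, and 0 members were called, the 1 being Abcg1 in Per1-/-. The Abcg1 differences were 0.76 (SE 0.36, adjusted p = 0.247), 1.04 (SE 0.36, adjusted p = 0.111), and 0.62 (SE 0.36, adjusted p = 0.324), values that did not pass the test in limma without the block.

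Genotypes were compared on each day to ask whether the Per genotype goes with another balance of synthesis and efflux. Over 9 comparisons and 261 member tests, 1 was called, Abca1 in Per1-/- against the libraries labelled Per2-/- on day 4, where 0.556% of all genes were called. The Per1-/- libraries were at 24.3, 19.9, and 23.5 FPKM and those labelled Per2-/- at 12.4, 12.7, and 10.9 FPKM, with no overlap, a log2 difference of 0.90 (SE 0.18, adjusted p = 0.0206). WT lay between, at 14.9, 13.7, and 19.8 FPKM, and overlapped neither. Against WT, Per1-/- differed by 0.49 (SE 0.18, adjusted p = 0.612) and the libraries labelled Per2-/- by -0.41 (SE 0.18, adjusted p = 1), neither of which was called. The call was lost without replicate 1 or replicate 3 of either group (adjusted p = 0.0785 to 0.127). Rescaling to a common sum also ended it (adjusted p = 0.127). Voom weights gave an adjusted p of 0.00628 and a block of the replicate number 0.0423, and the difference stayed at 0.81 to 0.99 over all of these alternatives.

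The other 8 comparisons had 0 members called, and voom weights also gave 0. Of all genes, 0.0134%, 0.0067%, and 0.0268% were called between Per1-/- and WT on days 0, 2, and 4, and 0.0067%, 0.0268%, and 0.0067% between the Per2-/- label and WT. Between Per1-/- and the Per2-/- label it was 0.0201% on day 0 and 0.0737% on day 2. The study, with another test at the same thresholds, reported far more genotype differences in these libraries. The fit used here called far fewer, so an absence of calls among the members does not show that the genotypes are alike. Without adjustment, at a p under 0.05, there were 3 further tests of Abca1 and, in Per1-/- against the libraries labelled Per2-/- on day 4, also Apoe and Abcg1. Of all genes, 13.2% had such a p in this last comparison, 5.97% and 8.22% on the earlier days of the same contrast, 4.82%, 2.75%, and 6.19% between Per1-/- and WT, and 3.94%, 2.87%, and 3.42% between the Per2-/- label and WT. Apoe differed there by 1.67 (SE 0.56, adjusted p = 0.177) and Abcg1 by 0.87 (SE 0.36, adjusted p = 0.291), and the 2 groups did not overlap for either, as for 11% of all genes in that direction. The summed macrophage marker level on day 4 was 1253 to 2205 FPKM in Per1-/-, 610.3 to 1104 FPKM in WT, and 466 to 811 FPKM in the libraries labelled Per2-/-. Adgre1, encoding F4/80, was at 54.1, 37.3, and 42.9 FPKM in Per1-/-, 20.7, 18.7, and 24.7 in WT, and 14.5, 13.8, and 19.6 in those labelled Per2-/-. The group means had the order of those of Abca1, and the part of these cells in it was not tested.

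No synthesis gene was called between genotypes on any day. On day 2, 17 of 18 had a lower mean in Per1-/- than in the libraries labelled Per2-/-, with a median of -0.40 against -0.015 for all genes, and 0 of 18 had an unadjusted p under 0.05. The lowest was Idi1, 6.36, 8.68, and 6.71 FPKM against 15.0, 6.38, and 13.5 FPKM, -0.60 (SE 0.41, adjusted p = 0.789), with overlap. Tm7sf2 was at 2.71, 2.90, and 2.52 FPKM against 4.36, 3.89, and 4.17 FPKM, -0.59 (SE 0.33, adjusted p = 0.693). It was among 4 of 18 whose Per1-/- libraries all lay below those labelled Per2-/-, as for 7.5% of all genes. The fit gave each gene 1 spread over all 9 groups, and the day 0 libraries widen it for synthesis genes. For Tm7sf2 the replicate SD (log2) was 0.71 there, against 0.13 and 0.20 later. The p-values of these genes at the later days therefore carry day 0 spread and do not show that the genotypes are alike. On day 4 all 18 had a higher mean in the libraries labelled Per2-/- than in WT, by 0.068 to 0.33 on the log2 scale, with a median of 0.20 against -0.0095 for all genes. For 9 of the 18 the libraries labelled Per2-/- all lay above WT, as for 4.11% of all genes, but 0 of 18 had an unadjusted p under 0.05 and 0 were called with only those 6 libraries fitted. Cyp51 was at 28.1, 25.8, and 29.1 FPKM in WT and 33.3, 29.9, and 35.5 FPKM in those labelled Per2-/-. The synthesis genes share regulation and are not independent of each other. Per1-/- minus WT had a synthesis median of 0.0099 on day 4.

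No difference of a change from day 0 between genotypes was called among the members (0 of 174 tests over 6 comparisons) or among all genes (0%), and voom weights also called 0. At an unadjusted p under 0.05 there were 3 tests of members, all Abca1. Among all genes the share with such a p was 2.05% and 3.35% for Per1-/- against WT on days 2 and 4, 2.91% and 2.61% for the Per2-/- label against WT, and 4.49% and 5.99% for Per1-/- against the Per2-/- label. The Abca1 change to day 4 in Per1-/- minus that in the libraries labelled Per2-/- was 0.996 (SE 0.25, adjusted p = 0.412) on the log2 scale. For Apoe it was 1.54 (SE 0.79, adjusted p = 0.854), with a 95% interval of -0.11 to 3.18.

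Synthesis was set against efflux within each library, as a description with no test. The measure was the mean log2(FPKM + 0.1) of the 18 synthesis genes minus that of the 6 efflux genes. Among the 6, Nr1h3, whose level was too low to be tested, had the same weight as the others. The difference was 1.79 ± 0.56 (SD, n = 3) in WT, 1.70 ± 0.83 in Per1-/-, and 1.67 ± 0.83 in those labelled Per2-/- at day 0. On day 2 it was 0.19 ± 0.11, -0.18 ± 0.17, and 0.53 ± 0.32. On day 4 it was -0.40 ± 0.12, -0.79 ± 0.35, and 0.077 ± 0.092. The Per1-/- libraries of day 2 (-0.34 to -0.0092) all lay below those of WT (0.11 to 0.31) and those labelled Per2-/- (0.19 to 0.83). The 9 day 0 libraries were all at 0.84 or above and the 9 day 4 libraries at 0.18 or below.

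On day 4 the libraries labelled Per2-/- stood above both other genotypes in this measure. The libraries labelled Per2-/- were at 0.015, 0.18, and 0.033, WT at -0.36, -0.30, and -0.53, and Per1-/- at -0.44, -0.79, and -1.14. WT and Per1-/- overlapped, since WT replicate 3 lay below the highest Per1-/- library. The synthesis part was 3.17 ± 0.13, 3.20 ± 0.19, and 3.36 ± 0.12 in WT, Per1-/-, and the libraries labelled Per2-/-, and the efflux part 3.56 ± 0.23, 4.00 ± 0.16, and 3.29 ± 0.20.

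**Figure D4:**
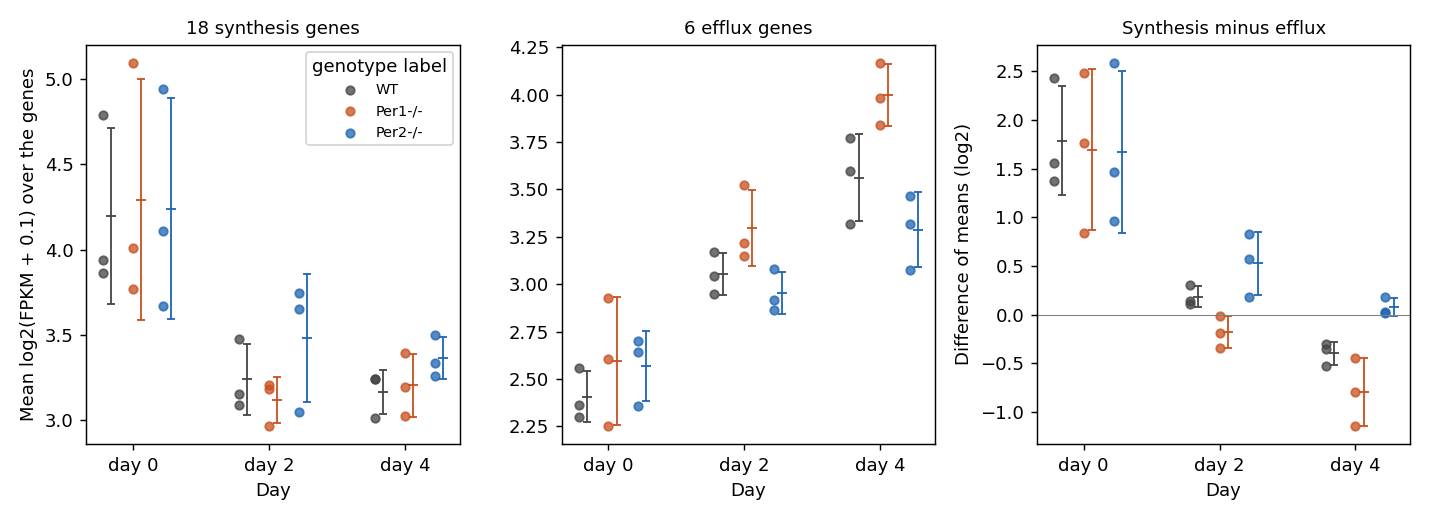
Points are single libraries by day and genotype label, showing the mean log2(FPKM + 0.1) of 18 synthesis genes, of 6 efflux genes, and the difference of both means, with the mean and SD of 3 libraries beside them. The difference falls from 0.84 to 2.59 on day 0 to -1.14 to 0.18 on day 4, and the day 0 synthesis levels spread most.

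Other genes of the pathway were counted from lists, in the order WT, Per1-/-, and libraries labelled Per2-/-, on day 2 against day 0. Beside each count stand 20.8%, 20.8%, and 18.7% of all genes called higher and 19.7%, 18.8%, and 16.8% called lower. Of 18 other SREBP target genes, mostly of fatty acid synthesis, 11, 14, and 7 were called lower and 2 higher in each. Mid1ip1, an activator of acetyl-CoA carboxylase, was at 35.4, 30.7, and 45.7 FPKM in WT on day 0 and 12.3, 9.38, and 7.69 FPKM on day 2, -1.92 (SE 0.20, adjusted p = 9.34e-08). Scd1, the stearoyl-CoA desaturase, and Aacs, the acetoacetyl-CoA synthetase, had -1.46 and -1.34. Gpam and Lpin1, of glycerolipid synthesis, were the 2 called higher in WT, with 1.85 and 1.27.

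Of 12 uptake and lysosome genes, 3 were called lower in each genotype, not far from the share of all genes called lower, and 0, 1, and 0 higher. The 3 in WT were Lrp8, a lipoprotein receptor (-1.40), Scarb1, the HDL receptor (-1.16), and Lamp1, a lysosome membrane protein (-0.78). Of 7 tested genes of cholesterol esters and oxysterols, 2, 2, and 1 were called higher and 3, 2, and 3 lower. Soat1, which esterifies cholesterol for storage, was at 17.4, 12.6, and 17.7 FPKM in WT on day 0 and 6.56, 6.22, and 6.32 FPKM on day 2, -1.29 (SE 0.13, adjusted p = 2.99e-08). Ch25h, which makes 25-hydroxycholesterol, and Nceh1, an ester hydrolase, had -1.61 and -0.63, while Cyp46a1 and Cyp7b1, hydroxylases of cholesterol and of oxysterols, had 1.96 and 1.26.

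Of 9 other efflux genes tested, 2, 3, and 2 were called higher, near the share of all genes, and 3 lower in each genotype. Abca9 and Abca5, transporters of the ABCA family, had 2.44 and 1.28 in WT. Arl4c, a small GTPase raised by LXRs, Plin2, a coat protein of lipid droplets, and Lpcat3, a phospholipid acyltransferase, had -1.80, -1.24, and -0.80. The median of the list was 0.43 in WT.

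Of the 9 genes that process SREBPs, 2, 2, and 1 were called higher and 1, 1, and 0 lower. Fbxw7, a ubiquitin ligase that targets SREBPs, had 1.01, Mbtps1, the site-1 protease that cuts them, 0.63, and Vcp -0.60. Of 10 genes of other isoprenoid products, 3, 4, and 3 were called lower, also not far from the share of all genes, and 0 higher, led in WT by Pdss1 of ubiquinone synthesis (-1.08), Icmt, which methylates prenylated proteins (-0.79), and Nus1 of dolichol synthesis (-0.68).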

How the data were processed

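RNA was sequenced from 27 libraries of reprogramming MEFs (3 genotype labels, days 0, 2, and 4, and 3 replicates each), from poly-A RNA in nondirectional paired-end libraries. The authors aligned reads with HISAT2 2.0.5 to build mm10 and counted them per gene with featureCounts 1.5.0-p3, tools and build as given in the submitters' processing notes. The deposited values are FPKM per gene, which the authors had divided by a size factor per library, so that sums over the table differ between days. From FPKM and gene length, whole fragments came out for 100% of values (tolerance 0.01 fragments), 15815013 to 24264097 per library, which sets the precision of low genes such as Fdps and Nr1h3.

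Genes that averaged 0.5 FPKM or more were tested in 1 limma 3.58.1 fit (R 4.3.3) of log2(FPKM + 0.1) on the 9 groups, with Benjamini-Hochberg adjustment over 14932 genes in each of 24 comparisons. Fold changes on this scale understate those of low genes. Calls needed an adjusted p no higher than 0.05 and a log2 difference reaching 0.58. The test was run on simulated fragments for WT day 2 against day 0, with the same spread of a gene in all groups. The synthesis genes spread more on day 0 than later, so this check does not cover them. Replicate numbers were taken to pair libraries where all 3 same-numbered pairs had correlated deviations from the group means over 0.1, which held for days 0 and 2 and days 2 and 4 of Per1-/- and days 2 and 4 of WT (0.13 to 0.29), and for 0 of 9 comparisons of genotypes. All 30 members are named. Of the other pathway lists, at most 3 genes per direction are named, those with the largest differences among the calls in WT on day 2 against day 0. Of the markers, Csf1r, Adgre1, and Alb are named, with Per1 and Per2 as a check of the labels. The members and lists were chosen with earlier results of these data known. Alternatives were pseudocounts of 1 and 0.01, a filter of 1 FPKM or none, rescaling to a common sum, trimmed mean factors, voom weights on the fragments, a fit of only the groups compared, no minimum fold, a replicate block, the median over genes, efflux without Apoe, and single libraries left out. Python 3.11.15 was used for tables and plots.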

Additional observations from a re-analysis of the deposited data

How the results depend on the processing

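With FPKM rescaled to a common sum, synthesis genes called lower on day 2 were 5 in WT and 5 in the libraries labelled Per2-/-, those on day 4 were 7 in the latter, and the Per1-/- against Per2-/- difference on day 4 had 0 calls. In the libraries labelled Per2-/- the day 2 count was 7 with no filter, 5 with only the groups compared fitted, and 6 without the 3 day 0 libraries that stood apart. Leaving out single libraries gave 9 to 15 (WT, day 2), 5 to 15 (labelled Per2-/-, day 2), and 5 to 15 (the same, day 4) synthesis genes, and 0 to 1 member between Per1-/- and Per2-/- labels on day 4. Between days 2 and 4 in Per1-/-, 1 member was called with voom weights and 1 with only the groups compared fitted. At an unadjusted p of 0.05 with the same fold, 1 member was called in WT and 3 in Per1-/- between days 2 and 4, 3 between Per1-/- and those labelled Per2-/- on day 4, and 1 for each of their differences in change from day 0. The unadjusted p and the 3 omitted day 0 libraries were chosen after seeing the data. With the median over genes, synthesis minus efflux was -2.20 (WT, day 2 minus day 0), -2.64 (WT, day 4 minus day 0), and -0.20 (Per1-/- minus WT, day 2). The cause of these shifts was not tested.

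With the replicate number as a block, 2, 2, and 1 members were called between days 2 and 4 in WT, Per1-/-, and those labelled Per2-/-, and no other count moved by over 1.5 times. Of 27 libraries, 26 correlated best with their own number across days of a genotype, and 6 did across genotypes of a day. This agreement of numbers across days was not used in the main fit, which treats the libraries of different days as unpaired. In only 3 of 9 comparisons of days did all pairs pass the limit of 0.1. Outside those 3, the block ended the calls of Hmgcs1 (WT, day 2), of Mvk, Fdft1, and Cyp51 (labelled Per2-/-, day 2), and of Fdps (the same, day 4), and added calls of Apoe (WT, day 4 against day 0, adjusted p = 0.000695 in limma), Insig1 (labelled Per2-/-, day 4 against day 0), and Abcg1 (the same, day 4 against day 2).

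Some single genes changed sign on day 2 against day 0. With the common sum, the log2 difference was 0.034 (Insig2), 0.17 (Scap), and 0.42 (Nr1h2) in WT, 0.057 (Dhcr7), 0.027 (Insig2), and 0.18 (Scap) in Per1-/-, and 0.037 (Pmvk) and 0.26 (Apoe) in those labelled Per2-/-. Without the 3 day 0 libraries, Dhcr7 in Per1-/- was at 0.10 and Pmvk in those labelled Per2-/- at 0.17. Over single omitted libraries, Dhcr7 ranged from -0.17 to 0.34 in WT, -0.62 to 0.10 in Per1-/-, and -0.26 to 0.41 in those labelled Per2-/-, Nr1h2 from -0.051 to 0.042 in WT, Tm7sf2 from -0.18 to 0.58 in Per1-/-, and Pmvk from -0.66 to 0.17 and Apoe from -0.61 to 0.29 in those labelled Per2-/-. Summary results were counts, held to a limit of 1.5 times, and levels, held to the pooled replicate SD. Of 426 under other settings than an omitted library, 406 stayed within these limits, and of 306 with 1 library left out, 297 did. Counts of 0 that stayed at 0 are among them. Of 1110 results of single genes under the other settings, 1013 kept their direction and call, and 10 changed sign. Of 558 with 1 library left out, 481 kept both, and 16 changed sign.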
